A study of Gossypium hirsutum with 9 samples.

Results

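Ascorbate, the vitamin C of plants, is the main soluble antioxidant of plant cells. In the principal route of synthesis, mannose phosphate is activated to GDP-mannose, epimerised to GDP-L-galactose, and converted through L-galactose to ascorbate at the inner mitochondrial membrane. Ascorbate peroxidases then use ascorbate to reduce hydrogen peroxide, and monodehydroascorbate and dehydroascorbate reductases return the oxidised forms to ascorbate. In cotton fibres, each a single cell growing out of the seed surface, hydrogen peroxide and ascorbate peroxidase are known to bear on elongation, and GDP-mannose and GDP-L-galactose also serve the synthesis of cell-wall polysaccharides.

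The genes described here are those whose symbol in the deposited table names an enzyme of ascorbate synthesis or recycling. Of 70478 genes, of which 52552 carried a symbol, 63 matched, under 17 symbols. Synthesis was represented by 22 genes, namely 2 of PMM (phosphomannomutase), 6 of CYT1 (the Arabidopsis symbol of the enzyme that makes GDP-mannose), 4 of GME-1 (the rice symbol of GDP-mannose epimerase), 8 of VTC2 (GDP-L-galactose phosphorylase) and 2 of GLDH (L-galactonolactone dehydrogenase, the last enzyme). Recycling was represented by 36 genes, namely 24 ascorbate peroxidases (APX symbols), 6 monodehydroascorbate reductases (MDAR) and 6 dehydroascorbate reductases (DHAR). The other 5 genes had the symbols AAO and AO, which stand for ascorbate oxidase in some plants. AO is also the Arabidopsis symbol of an aspartate oxidase, so those genes are kept apart.

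The study compared fibres at 9 days post anthesis from plants in which GhWRKY16, which encodes a transcription factor, was targeted by RNA interference (RNAi), with fibres from wild-type plants (WT), all Gossypium hirsutum grown in the field. The labels list 9 samples, of which 5 RNAi libraries (replicates 2 to 6) and 3 WT libraries (replicates 1 to 3) were analysed. The sources used here do not give the promoter of the construct, the number of transgenic lines or whether replicates came from separate plants. P-values therefore cover the spread among these libraries alone, and some of that may be technical. No gene of the table has the symbol WRKY16, so the silencing itself was not measured here. Levels are FPKM, read abundance scaled by gene length and library size, which can be compared between genes because they are per length. Means are given with the SD of 5 RNAi and 3 WT libraries throughout, and single values follow the order of RNAi replicates 2 to 6 and WT replicates 1 to 3.

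The libraries summed to between 1200826 and 1296912 FPKM and contained no identical pair. Read counts are unknown. Relative depth, estimated from low values, was 1.26, 1.83, 0.366, 2.19 and 1.11 in the RNAi libraries and 1.76 and 1.38 in WT replicates 2 and 3, against WT replicate 1. RNAi replicate 4 was therefore the shallowest and also had the lowest mean correlation with the other libraries (0.940, against 0.955 to 0.971). Fibre identity was plain, since Gh_D05G1514 (E6, a protein abundant in cotton fibre) averaged 18957 FPKM in RNAi and 20113 in WT. The 96 genes of the fibre symbols summed to 63393 ± 5848 FPKM in RNAi and 64140 ± 1389 in WT. Of 58 tested genes of the fibre symbols, 44 had a positive log2 fold change (RNAi over WT), against 46.4% of all tested genes. Among them 7 had an unadjusted p under 0.05 (12.1%) and 7 did not overlap between the groups (12.1%). Over all tested genes, 5.86% had such a p and 4.07% did not overlap. None of the fibre genes passed the test used below. The 58 green-tissue symbols summed to 52.7 to 79.2 FPKM in RNAi and 44.3 to 55.8 in WT, and 11 of them were at 0 in every library. Of its 13 tested genes, 9 had a positive log2 fold change and 4 had an unadjusted p under 0.05 (30.8%, against 5.86% of all tested genes). In 3 of the 13 the groups did not overlap (23.1%, against 4.07%), and these lay above WT in every RNAi library. None of the 13 passed. The 20 symbols of the seed coat pigment layer summed to 224 to 535 FPKM in RNAi, highest in replicate 4, and to 235 to 292 in WT, with 3 at 0 in every library; all 8 of its tested genes had a positive log2 fold change and none passed. The 24 symbols of seed storage and oil bodies summed to 28.5 to 38.5 FPKM in RNAi and 28.8 to 33.2 in WT, with 10 at 0. Their part in the results below was not tested. In bulk tissue, fewer cells of a type and less RNA per cell cannot be told apart.

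Of the 4 GME-1 genes 1 passed the test, and no gene of the steps on either side of it did. Of the 63 genes, 44 had at least 1 FPKM in at least 3 libraries and were tested, and 19 were below that level. Among the 44, 1 rose in RNAi, none fell and 43 did not pass (limma on log2(FPKM + 1), adjusted p under 0.05 over all 34051 tested genes). Over all tested genes, 0.167% of tested genes passed in either direction and 0.0793% passed as higher in RNAi. The 44 log2 fold changes were balanced, with 22 positive and 22 negative and a median of -0.00094, against -0.02 over all tested genes. At an unadjusted p under 0.05 stood 3 of the 44, and 5.86% of all tested genes. The gene that rose, Gh_A08G1909, is among the 3, and its rise was known when the genes were chosen. Without it the count was 2 of 43 (4.65%).

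Gh_A08G1909 (GME-1), on chromosome A08 of the A subgenome, was the gene that rose. The epimerase makes GDP-L-galactose, the first intermediate on the branch toward ascorbate. Its level was 12.0, 14.0, 11.2, 12.5 and 10.8 FPKM in the RNAi libraries, against 4.36, 5.45 and 5.31 FPKM in the WT libraries. The lowest RNAi library lay well above the highest WT library, and the values within each group were close together. The mean was 12.1 ± 1.26 FPKM in RNAi and 5.04 ± 0.594 in WT. On the log2(FPKM + 1) scale the difference was 1.12 ± 0.13 (SE; 95% interval 0.83 to 1.41), a 2.17-fold rise, with a limma adjusted p of 0.00855. The rise of this gene was known from earlier results of these data when the genes were chosen. The call did not hold without WT replicate 1, where the log2 difference was 1.03 and the limma adjusted p was 0.05002. It did not hold with a replicate block either (limma adjusted p = 0.0541), a fit that compares the groups through replicates 2 and 3 alone. With the filter on low values recomputed, the call was also lost without WT replicate 1, 2 or 3 (limma adjusted p = 0.0633, 0.0567 and 0.0604).

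Of the other 3 genes of the same symbol, 2 were tested and neither passed. Gh_A13G0851 (GME-1) had 17.3, 16.6, 14.9, 18.3 and 10.9 FPKM in RNAi and 15.4, 17.7 and 16.9 in WT. The groups overlapped, and the limma log2 fold change was -0.11 (95% interval -0.47 to 0.26; adjusted p = 0.932). Gh_Sca007080G01 (GME-1), placed on a scaffold and on no chromosome, had 16.1, 12.3, 13.2, 11.6 and 10.3 FPKM in RNAi and 9.69, 12.5 and 12.2 in WT. Its groups overlapped as well, with a log2 fold change of 0.13 (95% interval -0.22 to 0.48; limma adjusted p = 0.908). Gh_D08G2275 (GME-1), the gene of this symbol on D08, was nearly silent, at 0.520 ± 0.216 FPKM in RNAi and 0.270 ± 0.256 in WT, and was not tested.

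The share of Gh_A08G1909 in the epimerase transcript is drawn from the same values as its rise, and was not tested. Gh_A08G1909 supplied 26.2%, 32.1%, 28.0%, 29.3% and 33.0% of the summed GME-1 FPKM in RNAi, against 14.8%, 15.1% and 15.3% in WT. The WT libraries were nearly identical in this share, and every RNAi library lay above them. The sum over the 4 genes was 41.0 ± 5.01 FPKM in RNAi and 33.5 ± 3.51 in WT, and it overlapped, because RNAi replicate 6 had 32.8 FPKM and WT replicate 2 had 36.1. In WT the mean of Gh_A08G1909 lay below those of Gh_A13G0851 and Gh_Sca007080G01. In RNAi the means of Gh_A08G1909 and Gh_Sca007080G01, 12.1 ± 1.26 and 12.7 ± 2.16 FPKM, lay within each other's spread.

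**Figure D1:**
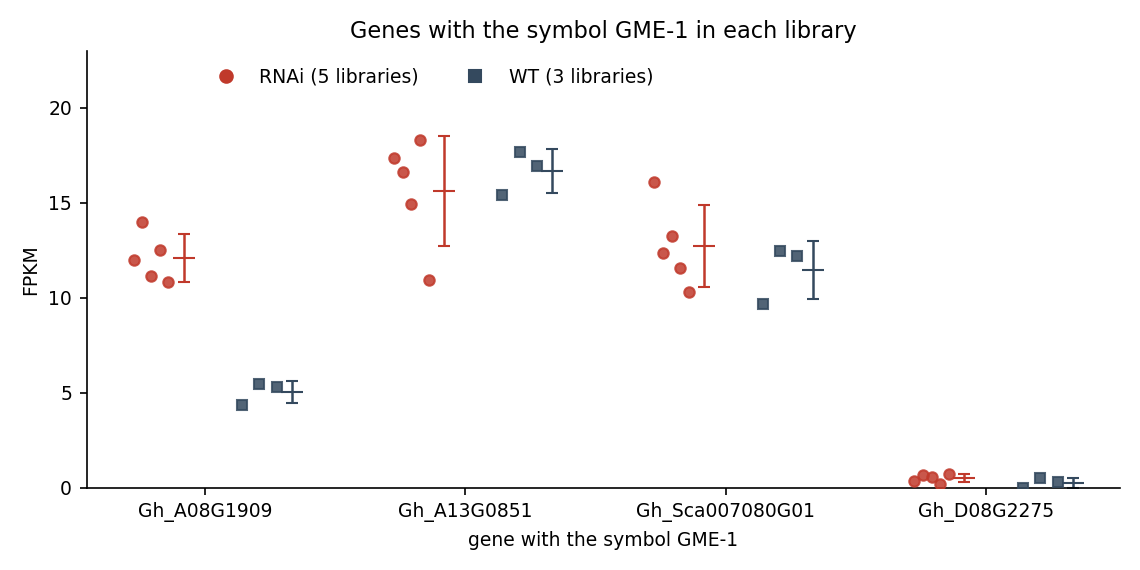
Level in FPKM of the 4 genes with the symbol GME-1, for 5 RNAi libraries (red circles) and 3 WT libraries (dark squares), with the mean and SD to the right of the points. Gh_A08G1909 lies between 10.8 and 14.0 FPKM in RNAi, above all WT values of 4.36 to 5.45, while the groups of the other 3 genes overlap.

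Upstream of the epimerase, 5 of the 6 tested PMM and CYT1 genes had a negative log2 fold change and none passed. Phosphomannomutase, which prepares mannose phosphate for activation, was led by Gh_A08G1162 (PMM) at 35.2, 28.5, 25.3, 31.0 and 31.3 FPKM in RNAi and 32.4, 33.3 and 41.0 in WT. The difference was -0.23 on the log2 scale (95% interval -0.52 to 0.07; limma adjusted p = 0.874), and WT replicate 3 was the highest library. Gh_D08G1446 (PMM) was several times lower, at 5.25 ± 1.52 FPKM in RNAi and 6.86 ± 1.65 in WT. GDP-mannose is formed by the enzyme that CYT1 names, and most of its transcript came from Gh_A10G2006 (CYT1). This gene had 45.0, 80.2, 87.0, 77.4 and 72.7 FPKM in RNAi and 84.2, 81.4 and 119 in WT. RNAi replicate 2 was the lowest and WT replicate 3 the highest, and the groups overlapped (log2 fold change -0.40, 95% interval -0.88 to 0.09; limma adjusted p = 0.864). Of the other CYT1 genes, 3 were tested, with means of 6.37 to 10.2 FPKM in RNAi and 7.24 to 8.75 in WT, and none of them passed. Gh_D04G0617 (CYT1) was at 0 in all libraries but RNAi replicate 6, which had 1.54 FPKM.

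Downstream of the epimerase, GDP-L-galactose phosphorylase had the most transcript of the synthesis symbols, at a level close in both groups. This step is regarded as the main point of control of the pathway in plants. The 8 VTC2 genes summed to 576 ± 26.1 FPKM in RNAi and 564 ± 53.4 in WT. All 8 were tested, and their log2 fold changes ranged from -0.15 to 0.24 with 5 positive and 3 negative. The leading gene, Gh_D13G1445 (VTC2), had 234, 290, 270, 285 and 250 FPKM in RNAi and 274, 287 and 234 in WT, so that both groups spanned the same range. Its log2 fold change was 0.01 (95% interval -0.24 to 0.25; limma adjusted p = 0.994). Gh_D01G0665 (VTC2) had the lowest p of the symbol, with 128, 105, 106, 109 and 121 FPKM in RNAi and 98.8, 105 and 85.5 in WT (limma adjusted p = 0.849). Its log2 fold change was 0.24 (95% interval -0.01 to 0.48). The remaining VTC2 genes fell into a group of higher level, Gh_A13G1158 at 81.6 ± 15.0 FPKM and Gh_A01G0646 at 72.1 ± 2.91 in RNAi (89.4 ± 8.14 and 70.3 ± 8.14 in WT), and a group of 4 genes at 6.78 to 13.1 FPKM in RNAi and 6.71 to 13.3 in WT.

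Of the synthesis steps represented among these genes, the last had the least transcript by the summed level of its symbol. Gh_D11G3088 (GLDH), which oxidises L-galactonolactone to ascorbate, had 9.64, 10.3, 8.39, 7.96 and 6.77 FPKM in RNAi and 9.30, 9.40 and 9.77 in WT. RNAi replicate 6 was the lowest library, and the groups overlapped (log2 fold change -0.14, 95% interval -0.46 to 0.18; limma adjusted p = 0.900). Gh_A11G2760 (GLDH) had 4.07 ± 0.835 FPKM in RNAi and 4.71 ± 0.483 in WT. Over all 22 synthesis genes the summed level was 762 ± 35.0 FPKM in RNAi and 774 ± 31.2 in WT.

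**Figure D2:**
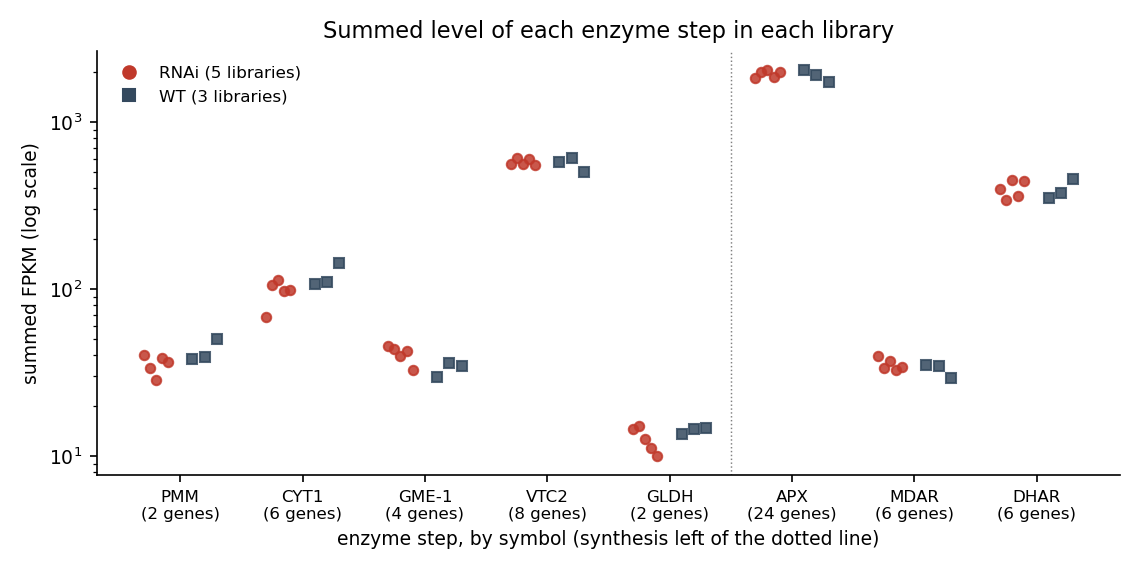
Summed FPKM on a log scale of the genes of each enzyme step, for 5 RNAi libraries (red circles) and 3 WT libraries (dark squares). The groups overlap at every step; the sums run from 10.03 FPKM for GLDH in RNAi replicate 6 to 2046 FPKM for APX in RNAi replicate 4.

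Recycling was carried by far more transcript than synthesis, and none of its 24 tested genes passed. The 41 genes of recycling and the oxidase symbols summed to 2380 ± 123 FPKM in RNAi and 2316 ± 103.01 in WT, which was 3.13 ± 0.239 and 2.996 ± 0.156 times the sum of the synthesis genes. All 63 genes together took 0.250 ± 0.00676% of the FPKM of a library in RNAi and 0.243 ± 0.00952% in WT.

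Ascorbate peroxidase transcript was dominated by a pair of genes. Gh_A05G0863 (APX1) had 790, 855, 880, 782 and 887 FPKM in RNAi and 946, 829 and 759 in WT, and the WT libraries spanned the whole RNAi range. Its log2 fold change was -0.01 (95% interval -0.23 to 0.22; limma adjusted p = 0.991). Gh_D05G3875 (APX2) had 540, 611, 643, 591 and 615 FPKM in RNAi and 620, 560 and 536 in WT, again with overlap, at a log2 fold change of 0.07 (95% interval -0.14 to 0.28; limma adjusted p = 0.923). These 2 genes made up 74.0 ± 1.07% of the summed APX level in RNAi and 75.0 ± 1.88% in WT. The names APX1 and APX2 belong in Arabidopsis to cytosolic peroxidases.

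A second block of peroxidase genes carries consecutive numbers on A08 and D08. All 4 tested APX2 genes there had a positive log2 fold change and none passed, while their neighbour Gh_D08G2094 (APX1), at 2.91 ± 1.69 FPKM in RNAi and 2.95 ± 0.545 in WT, had -0.11. Gh_A08G1744 (APX2) came closest, with 56.8, 44.8, 60.5, 45.9 and 51.3 FPKM in RNAi and 40.5, 48.0 and 33.2 in WT. Only WT replicate 2 reached into the RNAi range, and the log2 fold change was 0.35 ± 0.15 (SE; unadjusted p = 0.0408, limma adjusted p = 0.840). Gh_D08G2095 (APX2) was the 1 recycling gene whose groups did not overlap, at 79.4, 81.7, 84.9, 79.1 and 81.8 FPKM in RNAi and 74.5, 76.5 and 72.1 in WT. The gap was small, with a log2 fold change of 0.13 (95% interval -0.06 to 0.32; limma adjusted p = 0.877). Among the 43 tested genes other than Gh_A08G1909 it was the 1 without overlap (2.33%), against 4.07% of all tested genes. Gh_A08G1746 (APX2) had 170 ± 7.64 FPKM in RNAi and 155 ± 21.5 in WT, and Gh_D08G2093 (APX2) 15.3 ± 4.51 and 11.2 ± 1.66. Reads of such similar neighbours may have been divided among them by the authors' counting, which makes the single values uncertain.

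Gh_D04G1116 (APX2) behaved differently from all of these. It had 3.96, 12.3, 1.48, 3.01 and 0.876 FPKM in RNAi and 9.53, 6.44 and 6.66 in WT. RNAi replicate 3 was the highest library of either group, and the other 4 RNAi libraries all lay below the 3 WT libraries. With this spread the log2 fold change of -1.02 ± 0.53 (SE) did not pass (limma adjusted p = 0.864). Without RNAi replicate 3 it was -1.44 (limma adjusted p = 0.388). With a replicate block it was 0.11, in a fit that compares only the replicate numbers found in both groups.

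None of the tested plastid and peroxisomal peroxidase genes passed. Gh_D05G2244 (APXT, of the thylakoid) had 70.8, 71.2, 78.3, 69.3 and 73.5 FPKM in RNAi and 70.4, 75.5 and 79.0 in WT (log2 fold change -0.04, 95% interval -0.25 to 0.16; limma adjusted p = 0.951). Gh_A05G3726 (APXS, of the stroma) averaged 54.2 ± 8.03 FPKM in RNAi and 53.8 ± 7.77 in WT. Gh_A03G1812 (APX3, a peroxisomal form in Arabidopsis) had 28.4, 28.2, 17.5, 27.5 and 20.4 FPKM in RNAi and 29.3, 24.7 and 19.6 in WT. Its log2 fold change was -0.02 and changed sign in 7 of 18 settings. Both groups of it held high and low libraries, and Gh_D02G2245 (APX3) was likewise lowest in RNAi replicates 4 and 6 and WT replicate 3. Gh_A06G2046 (APX6) stood at 2.09 ± 0.634 FPKM in RNAi and 2.47 ± 0.406 in WT. Gh_D06G1049 (APX6) had 1.36, 0.381, 1.70, 1.31 and 4.40 FPKM in RNAi and 2.64, 1.94 and 2.98 in WT, with RNAi replicate 6 above all others (log2 fold change -0.45, limma adjusted p = 0.886). The 9 APX genes that were not tested had means of at most 1.06 FPKM in RNAi and 0.733 in WT.

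Dehydroascorbate reductase was next in transcript by symbol, at 398 ± 47.3 FPKM summed over 6 genes in RNAi and 393 ± 54.6 in WT. Nearly all of it came from the 4 DHAR2 genes, named after the cytosolic enzyme of Arabidopsis. Gh_D04G0580 (DHAR2) had 194, 145, 234, 157 and 224 FPKM in RNAi and 150, 164 and 208 in WT. Gh_A05G3064 (DHAR2) had 104, 79.2, 117, 87.3 and 118 FPKM in RNAi and 79.4, 90.9 and 106 in WT. Both genes were highest in RNAi replicates 4 and 6, followed by WT replicate 3 and RNAi replicate 2, so the libraries were ordered alike across the 2 genes and across the groups. The limma log2 fold changes were 0.12 and 0.13 (adjusted p = 0.932 and 0.917).

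The DHAR2 genes of chromosomes A10 and D10 did not share that order. Gh_A10G1891 (DHAR2) had 41.6, 50.5, 38.5, 47.9 and 43.0 FPKM in RNAi and 48.5, 51.1 and 72.7 in WT. RNAi replicates 4 and 2 were the lowest and WT replicate 3 stood far above the rest (log2 fold change -0.35 ± 0.15 SE; unadjusted p = 0.0446, limma adjusted p = 0.842). Gh_D10G2161 (DHAR2) had 52.7, 64.7, 52.9, 67.0 and 57.5 FPKM in RNAi and 69.3, 65.9 and 64.4 in WT, with RNAi replicates 2 and 4 again lowest. Gh_D07G0778 (DHAR3, the plastid form in Arabidopsis) was far lower, with 3.47, 2.81, 3.25, 1.27 and 1.69 FPKM in RNAi and 1.89, 1.74 and 2.08 in WT.

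Monodehydroascorbate reductase, which restores ascorbate from its radical, had the lowest summed transcript of the recycling enzymes, by symbol. The sum over 6 genes was 35.5 ± 2.77 FPKM in RNAi and 32.9 ± 3.12 in WT. These genes carried the symbols MDAR4 and MDAR5 alone, and genes without a symbol could not be counted. Gh_D12G2745 (MDAR5) had 20.9, 16.3, 20.8, 14.6 and 17.9 FPKM in RNAi and 15.3, 18.3 and 12.2 in WT, with overlap (log2 fold change 0.24, 95% interval -0.13 to 0.60; limma adjusted p = 0.880). Gh_A10G0928 (MDAR4, an enzyme of the peroxisomal membrane in Arabidopsis) had 3.85 ± 1.09 FPKM in RNAi and 4.15 ± 1.202 in WT. Among the oxidase symbols, Gh_D08G2100 (AAO) alone was tested. It had 1.34, 1.56, 5.58, 0.642 and 1.02 FPKM in RNAi and 0.318, 1.65 and 0.854 in WT, and RNAi replicate 4, the shallowest library, stood apart from the others. Gh_A07G2022 (AO) was at 0.417 ± 0.262 FPKM in RNAi and 0.370 ± 0.149 in WT, and Gh_A12G2551 (AAO) was listed at 0 in all 8 libraries.

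**Figure D3:**
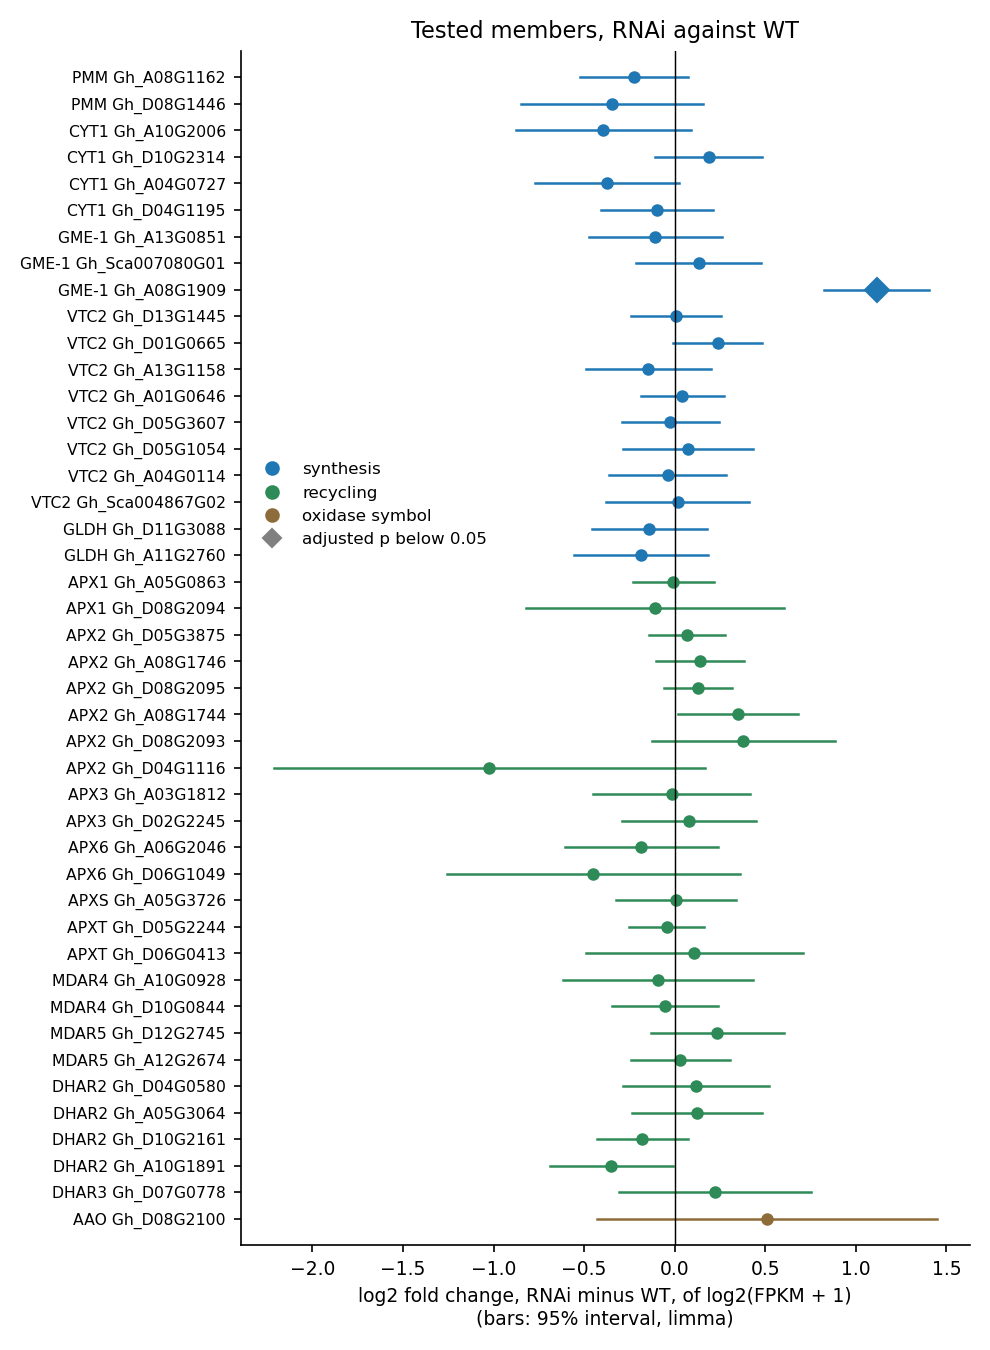
Log2 fold change, RNAi minus WT, of log2(FPKM + 1) for the 44 tested genes in pathway order, with 95% intervals from limma, for synthesis (blue), recycling (green) and the oxidase symbol (brown). The diamond is Gh_A08G1909 at 1.12, the 1 gene with an adjusted p below 0.05; the widest interval belongs to Gh_D04G1116, from -2.21 to 0.17.

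The intervals show how large a change could have gone unseen. For 40 of the 43 tested genes other than Gh_A08G1909, which is 93.0%, the 95% interval lay between -1 and 1 on the log2 scale, and the same held for 88.4% of all tested genes. For these 40 genes a change of 2-fold or more on the log2(FPKM + 1) scale was therefore outside the interval. The median SE was 0.16 for the 43 genes and 0.18 over all tested genes.

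As an allotetraploid, upland cotton holds an A and a D subgenome, and the balance between the copies of a gene was compared next. A pair was a symbol with exactly 1 gene on an A chromosome and 1 on the D chromosome of the same number. Of 9460 such pairs fitted in the whole table, 30 passed for a change of the A to D ratio (limma adjusted p under 0.05), which is 0.317%. None of the 16 pairs of the ascorbate genes passed, and 2 had an unadjusted p under 0.05, against 6.7% of all pairs. Both are described here. For Gh_A08G1909 and its D08 namesake Gh_D08G2275, the A share was 95.8 ± 1.80% in RNAi and 95.4 ± 4.32% in WT, and the groups overlapped. The log2 ratio of A to D, each as FPKM + 1, was 3.11 in RNAi and 2.27 in WT. The difference was 0.85 ± 0.19 (SE), with an exact two-sided permutation p of 0.0179 and a limma adjusted p of 0.162. With the D08 gene near 0, this difference depends on the pseudocount, at 0.24 with a pseudocount of 0.1 and -0.79 with one of 0.01, and no direction is given for it.

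In the CYT1 pair Gh_A10G2006 and Gh_D10G2314 the A copy held 84.4%, 87.8%, 88.4%, 89.2% and 87.4% of the summed FPKM in RNAi, against 91.3%, 89.9% and 93.0% in WT. The groups did not overlap in this share, though neither gene passed alone. The log2 ratio differed by -0.58 ± 0.16 (SE; exact two-sided permutation p = 0.0179, the smallest that 56 splits can give; limma adjusted p = 0.379). For the VTC2 pair Gh_A01G0646 and Gh_D01G0665, the A share was 35.5%, 39.9%, 40.6%, 39.7% and 38.9% in RNAi and 43.8%, 41.0% and 41.7% in WT (difference of the log2 ratio -0.19 ± 0.09 SE; exact permutation p = 0.0536, limma adjusted p = 0.777). The VTC2 pair was chosen after its values were seen. The CYT1 pair was picked from 16 by its limma p on the same ratios. Its permutation p is therefore no separate support and is not adjusted for the 16 pairs. The permutation test was planned for the Gh_A08G1909 pair alone, and the rise of that gene was already known. Of 11 pairs with at least 5 FPKM in WT, these 2 did not overlap in their A share, and 4.85% of the 6026 such pairs of the whole table did not. On chromosomes 02 to 05, where reciprocal translocations in the A subgenome are known, same-number pairs need not be true copies. Matched across them, the DHAR2 genes of A05 and D04 kept an A share of 34.8 ± 0.890% in RNAi and 34.7 ± 0.909% in WT, and the APX3 genes of A03 and D02 one of 56.5 ± 2.21% and 58.2 ± 2.16%. The sources used here do not say how the authors' counting divided reads between copies.

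**Figure D4:**
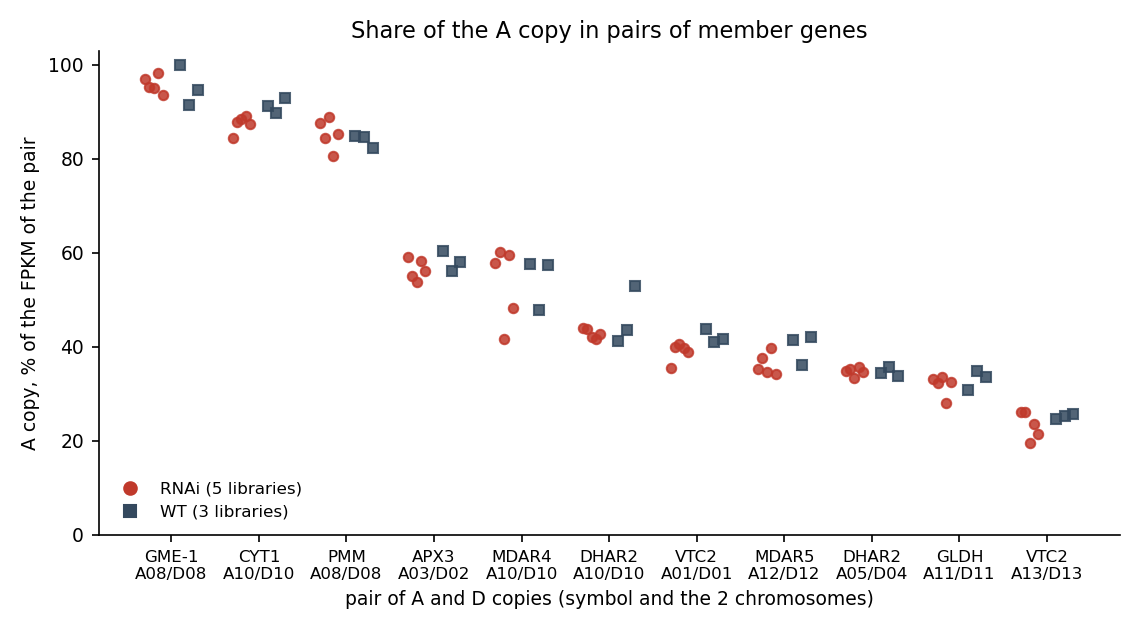
Share of the A copy in the FPKM of 11 pairs of A and D copies with a sum of at least 5 FPKM in WT, for 5 RNAi libraries (red circles) and 3 WT libraries (dark squares). The RNAi values lie below all WT values for CYT1 on A10 and D10 and VTC2 on A01 and D01, and the groups overlap in the other 9 pairs.

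Genes next to the pathway were counted from lists of symbols, and none of their members passed over all genes. Earlier and alternative steps included 13 tested genes of a list of hexose phosphate steps (7 positive, 6 negative) and 10 of the other steps and branches of ascorbate synthesis. Gh_D12G0386 (LGALDH, L-galactose dehydrogenase, the step before GLDH) had 30.9, 49.3, 35.2, 47.7 and 50.0 FPKM in RNAi and 58.8, 50.5 and 55.7 in WT. All RNAi libraries lay below the WT libraries, replicate 6 only narrowly, and the difference on the log2 scale was -0.38 ± 0.17 (SE; limma adjusted p = 0.844). It was the 1 of the 10 tested genes of its list without overlap (10%), against 4.07% of all tested genes. The 24 genes of that list summed to 130 ± 9.09 FPKM in RNAi and 146 ± 6.11 in WT, with RNAi replicate 6 just below WT replicate 3, and scaled to TPM the groups overlapped. Gh_A07G1778 (PGIC, phosphoglucose isomerase) had the lowest p of the first list, at a log2 fold change of 0.37 ± 0.16 (SE; limma adjusted p = 0.844). That list is mixed, since the symbols PGIP and PMI2 are also used for proteins outside sugar metabolism.

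GDP-mannose has other uses, in mannan and fucose synthesis and in protein glycosylation, and 17 tested genes stood for them. Of these, 11 had a positive and 6 a negative log2 fold change, with a median of 0.04. An unadjusted p under 0.05 was reached by 2 (11.8%, against 5.86% of all tested genes). In 1 gene the groups did not overlap, with RNAi above WT (5.88%, against 4.07%). Gh_D09G0899 (CSLA2, a glucomannan synthase) had 92.1, 70.8, 88.1, 69.0 and 76.1 FPKM in RNAi and 59.6, 69.6 and 57.8 in WT. Only WT replicate 2 reached the RNAi range, and the log2 difference was 0.34 ± 0.13 (SE; limma adjusted p = 0.838).

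None of the genes of the partners of recycling passed. Glutathione, the reductant used by DHAR, was represented by 8 tested genes with log2 fold changes from -0.19 to 0.14, the lowest p belonging to Gh_A11G3185 (GSH2, glutathione synthetase) at 0.14 (limma adjusted p = 0.882). The list of catalases, superoxide dismutases and thiol peroxidases held 44 tested genes, 23 positive and 21 negative, from -0.40 to 0.27, and Gh_D13G1723 (CAT2) had the lowest p (limma adjusted p = 0.864). CAT symbols are shared by catalases and by cationic amino acid transporters, so that list is mixed. The list of ascorbate transport and electron transfer across membranes held 22 tested genes. It took whole families by symbol, and which members carry ascorbate was not tested. Among them Gh_A11G0464 (NAT11, of the nucleobase-ascorbate transporter family) had 22.7, 18.9, 13.3, 21.4 and 11.5 FPKM in RNAi and 10.8, 12.5 and 9.90 in WT. RNAi replicate 6 lay within the WT range and the other 4 above it (log2 fold change 0.58 ± 0.22 SE; unadjusted p = 0.0253, limma adjusted p = 0.837). Its namesake Gh_D11G0538 (NAT11) had 0.52 ± 0.33 (SE; limma adjusted p = 0.877). Of the list of regulators, the 2 CSN5B genes were found, at log2 fold changes of 0.08 and -0.01 (limma adjusted p = 0.909 and 0.987).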

How the data were processed

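Fibre RNA-seq values were deposited by the authors as FPKM per gene and library. Per the submitters' processing notes the tools included FastQC, HISAT2 and DESeq 1.10.1, with no role stated. The sources used here name no genome build, annotation, read counter or strand setting. Members were found by symbol, and members and lists were chosen with earlier results of these data known. Identifiers matched the reference table in 0 cases, so chromosomes are those written in the identifiers, and no coordinates or sequences are given. The test took the 34051 genes reaching 1 FPKM in 3 or more libraries. It compared log2(FPKM + 1), a scale that understates changes of low genes, by limma (version 3.58.1, R 4.3.3, trend, two-sided, Benjamini-Hochberg over all tested genes). The code was tested on simulated data. Ratios of A to D copies were fitted likewise over all pairs. Absolute depth is unknown, which leaves no basis for counting intervals. Relative depth came from ratios of values under 0.5 FPKM, taken as whole reads up to 4 within 0.01 in log2. Named genes were members past the threshold or with an unadjusted p under 0.05, the highest member of each symbol, partners of a called gene, and in each list called genes and the gene of lowest p; other members are given as part of their family, chosen after their values were seen. The design was written for 9 samples, and RNAi replicate 1 was not analysed here. Alternatives were other scalings, pseudocounts and filters, each library left out, a replicate block, array weights and no trend.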

Additional observations from a re-analysis of the deposited data

Results flagged for a closer look

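Of the 44 tested ascorbate genes, 2 had an RNAi library far from the other 4, where chance flags about 1 in 20 groups. Gh_D08G2100 (AAO) had 5.58 FPKM in RNAi replicate 4 and 0.642 to 1.56 in the other RNAi libraries. The same library was the shallowest, at 0.366 of the depth of WT replicate 1, and had the highest sum of seed coat pigment layer symbols, 535 FPKM. The part of either in this value was not tested. Gh_D04G1116 (APX2) had 12.3 FPKM in RNAi replicate 3 and 0.876 to 3.96 in the other RNAi libraries.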

How the results depend on the processing

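The number of genes passing limma's threshold, 57 of all tested, was 35 with a pseudocount of 0.01, 36 with a filter at 5 FPKM, 88 with array weights, and 33 (without WT replicate 2 or 3) to 58 (without RNAi replicate 4) with 1 library left out. The rise of Gh_A08G1909 kept its sign in all 18 settings and passed in 16. With 1 library left out its log2 fold change was 1.03 to 1.17, and the ascorbate genes called numbered 0 (without WT replicate 1) to 1. In an alternative added after seeing the data, the filter on low values was recomputed without the library; 34 genes passed without RNAi replicate 5, 35, 22 and 21 without WT replicates 1, 2 and 3, 60 without RNAi replicate 4, and the ascorbate genes called were 0 without any of these WT libraries, with log2 fold changes of Gh_A08G1909 of 1.03, 1.17 and 1.15 (limma adjusted p = 0.0633, 0.0567 and 0.0604). No other ascorbate gene passed in any setting, the lowest limma adjusted p being 0.112. Calls for A to D ratios, 30 pairs, were 13 with a pseudocount of 0.01, 13 with no filter, and 8 (without WT replicate 3) to 27 (without RNAi replicate 6) with 1 library left out; without RNAi replicate 4, WT replicate 1 and WT replicate 2 they were 19, 17 and 9. The ratio difference of Gh_A08G1909 and Gh_D08G2275, 0.85, turned to -0.79 with a pseudocount of 0.01. The causes were not tested. Absolute depth is unknown, and genes near 1 FPKM are the least certain.

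Only replicate numbers 2 and 3 are shared between RNAi and WT. Deviations from the group means of same-numbered libraries correlated at 0.35 and -0.093. Libraries of unlike number correlated at -0.305 to 0.227, so replicate 2 lay above that range and replicate 3 within it. The numbers were not treated as pairs in the main fit. A replicate block therefore compares the groups through replicates 2 and 3 alone, and the other libraries do not bear on the difference. In that fit 313 genes, 0 ascorbate genes and 76 pairs passed, and Gh_A08G1909 had a log2 fold change of 1.13 (limma adjusted p = 0.0541).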
